A study of Homo sapiens with 9 samples.

Results

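Levels of 8 long noncoding RNAs, MIAT, MANCR, PURPL, LINC01436, LINC00511, LINC00662, LINC00520 and LINC02263, were followed in single cells of the human osteosarcoma line U2OS. They were 8 of 36601 genes in the count matrices and were chosen by symbol because their levels differed between the libraries. Their differences between tags and between CTD lengths are therefore described here without a test. The CTD is the repeated tail of RPB1, the catalytic subunit of RNA polymerase II. Every group carried an RPB1 with a tag, HaloTag or the photoconvertible fluorescent protein Dendra2, and a CTD of 25, 52 or 70 repeats. The 52-repeat form has the wild-type length. The 6 genotypes were HaloTag-RPB1-25R, HaloTag-RPB1-52R, HaloTag-RPB1-70R, Dendra2-RPB1-25R, Dendra2-RPB1-52R and Dendra2-RPB1-70R. All cells, the 52R forms included, had been kept in 1 µg/ml of α-amanitin, a mushroom toxin that blocks RNA polymerase II, for 6 days before harvest. Each genotype was 1 library, and the labels do not say whether a line was a single clone. HaloTag and Dendra2 libraries were sequenced on different dates, so the tag and the sequencing run cannot be told apart.

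Long noncoding RNAs are transcribed by RNA polymerase II, and most are capped, spliced and polyadenylated like messenger RNAs but code for no protein. Many remain in the nucleus and are made at low levels in bursts, so that at a given time only some cells hold a copy. PURPL is induced by the tumour suppressor p53, a transcription factor that halts the cell cycle after stress, and is known for limiting p53 levels in colorectal cancer cells. MIAT is a nuclear RNA named after myocardial infarction and binds splicing factors. MANCR was named for its association with mitosis in breast cancer cells. LINC00511, LINC00662 and LINC00520 have been studied mostly in tumour cells.

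On GRCh38 in GENCODE release 44, all 8 were annotated as long noncoding RNA genes. PURPL lay at chr5:27217714-27497871 on the plus strand, MANCR at chr10:4581295-4678216 on the minus strand and LINC00520 at chr14:55781132-55796731 on the minus strand. MIAT lay at chr22:26646411-26676475 on the plus strand, LINC01436 at chr21:36005137-36007838 on the plus strand and LINC00662 at chr19:27681072-27794005 on the minus strand. LINC00511 lay at chr17:72290091-72640472 on the minus strand and LINC02263 at chr4:117360596-117412712 on the plus strand. Gene length ranged from 2.70 kb for LINC01436 to 350.4 kb for LINC00511.

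Promoter windows of 250 bases before to 50 bases after the start were matched in RefSeq (GRCh38.p14) for 5 of the 8, namely MIAT, MANCR, PURPL, LINC00511 and LINC00662. Those of PURPL, MANCR and LINC00662 are printed because PURPL carries the result on p53, MANCR was highest with 25 repeats under both tags and LINC00662 reached the highest level of the 8. Both strands were searched for the TATA box (TATAAA), the CCAAT box, the GC box (GGGCGG), the E-box (CACGTG), the AP-1 motif (TGACTCA), the TEAD motif (CATTCC) and the p53 half-site, the decamer bound by a p53 dimer. Matches are in capitals. The windows are PURPL at chr5:27472042-27472341 on the plus strand, MANCR at chr10:4678021-4678320 on the minus strand and LINC00662 at chr19:27793891-27794190 on the minus strand, each given 5′ to 3′ along its gene.
PURPL: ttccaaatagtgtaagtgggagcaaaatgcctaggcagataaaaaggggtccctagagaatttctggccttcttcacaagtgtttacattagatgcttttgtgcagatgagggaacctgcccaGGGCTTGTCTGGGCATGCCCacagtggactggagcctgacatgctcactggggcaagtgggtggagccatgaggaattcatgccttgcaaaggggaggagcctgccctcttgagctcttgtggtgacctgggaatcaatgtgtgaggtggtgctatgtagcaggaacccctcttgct
MANCR: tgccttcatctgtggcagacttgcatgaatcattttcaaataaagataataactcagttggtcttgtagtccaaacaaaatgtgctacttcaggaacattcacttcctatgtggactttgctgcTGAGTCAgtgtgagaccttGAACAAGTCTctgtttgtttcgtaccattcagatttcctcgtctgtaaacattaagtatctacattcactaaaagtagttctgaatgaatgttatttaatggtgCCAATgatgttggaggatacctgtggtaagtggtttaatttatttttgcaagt
LINC00662: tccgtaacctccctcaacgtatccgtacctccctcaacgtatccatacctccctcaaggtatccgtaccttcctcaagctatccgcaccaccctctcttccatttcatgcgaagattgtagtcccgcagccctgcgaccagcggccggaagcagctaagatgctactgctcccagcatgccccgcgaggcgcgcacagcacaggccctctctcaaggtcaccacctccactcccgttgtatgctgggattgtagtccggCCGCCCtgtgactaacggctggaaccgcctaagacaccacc
The capitals of PURPL are 2 adjacent p53 half-sites with no base between them, which begin 127 bases before the RefSeq start. Such a pair was present in 6 of 34796 promoter windows (0.0172%), and a single half-site in 6.65%. This RefSeq start lay 254.6 kb inside the gene as GENCODE draws it. In MANCR the capitals mark, in order, the AP-1 motif on the opposite strand, a single p53 half-site 107 bases before the start and the CCAAT box. The AP-1 motif was found in 4.96% of windows and the CCAAT box in 34.6%. In LINC00662 they mark the GC box on the opposite strand, 9 bases after the start, which 44.9% of windows held. A match is a description of letters, not of a bound site.

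The libraries held between 2718 and 4677 cells after cells with fewer than 500 genes or more than 20% mitochondrial counts were left out. Total unique molecular identifiers (UMIs, one per captured RNA molecule) were 53863648 to 58442223 in HaloTag libraries and 52553686 to 53635648 in Dendra2 libraries. Median UMIs per cell were 10812 to 16020 with HaloTag and 15770 to 18739 with Dendra2. Between 0 and 7 cell barcodes were shared by any pair of libraries. Cells called G1 from expression made up 34.28% to 35.34% of HaloTag libraries and 12.05% to 16.9% of Dendra2 libraries. The labels call the cells epithelial. Of 8 epithelial markers, 2 (KRT8 and KRT18) were at or above 10 CPM (counts scaled to the library's total UMIs) in all libraries and 4 were under 1 CPM in all, with sums of 1034 to 1571 CPM with HaloTag and 848.1 to 1565 CPM with Dendra2. Of 10 osteoblast markers, 2 (COL1A1 and SPARC) were at or above 10 CPM and 3 were under 1 CPM, with sums of 336.7 to 509.8 CPM with HaloTag and 191.4 to 411.6 CPM with Dendra2. Leukocyte markers summed to 0.742 to 2.84 CPM with HaloTag and 0.685 to 1.10 CPM with Dendra2, and 5 of 5 endothelial markers were under 1 CPM in all.

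The 8 RNAs differed in their pattern over the CTD lengths. MANCR, PURPL and LINC00520 were highest with 25 repeats in HaloTag cells, and MANCR and PURPL in Dendra2 cells as well. MIAT, LINC01436 and LINC00662 were lowest with 25 repeats under both tags. LINC00511 was highest with 52 repeats under both tags, and LINC02263 varied mainly with the tag. Across the 6 libraries the ratio of the highest to the lowest level ran from 3.67 for LINC00511 to 76.2 for LINC00520. All levels below are CPM of the summed counts of a library, and their 95% Poisson intervals cover counting error only. With 1 library per genotype, fewer cells making an RNA and less RNA per cell cannot be told apart in these sums.

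**Figure D1:**
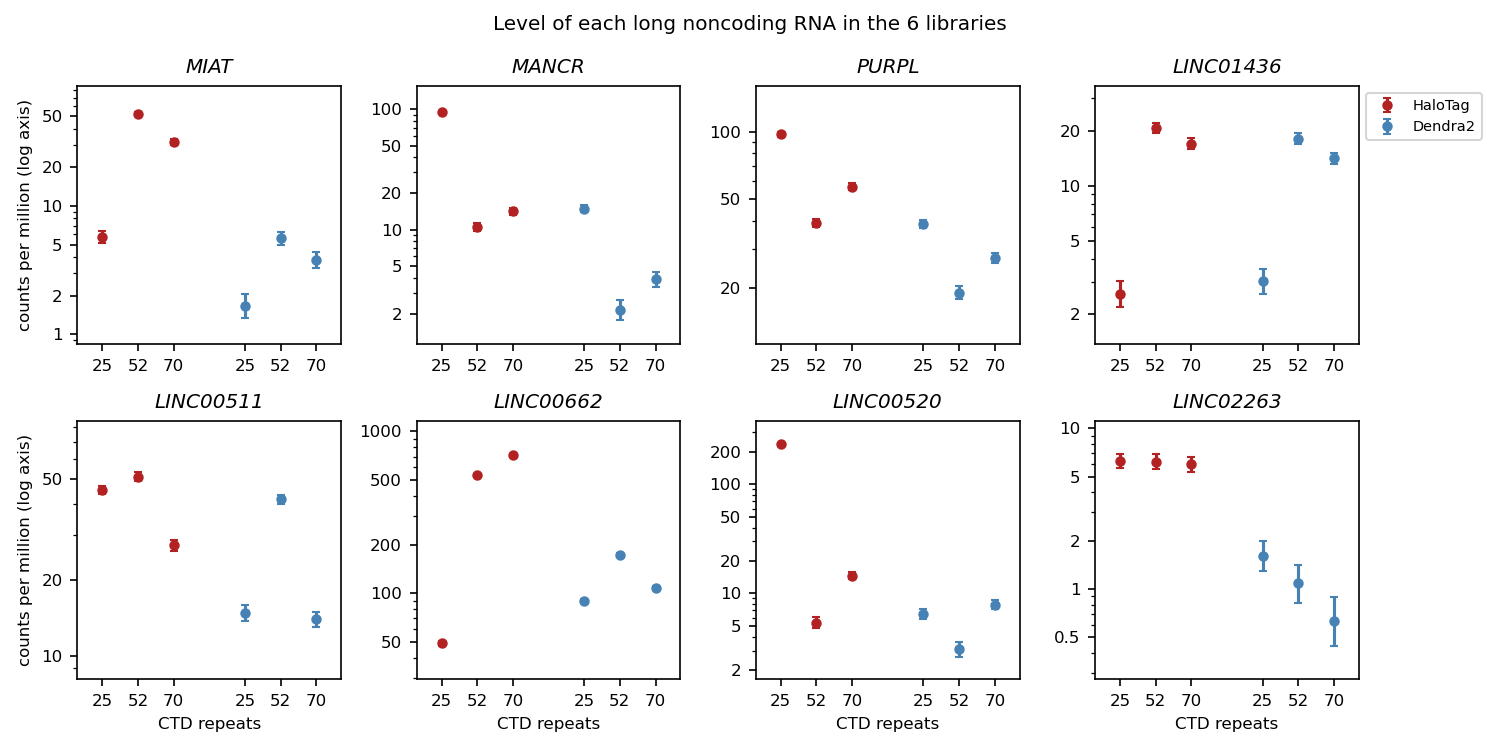
Level of each long noncoding RNA in CPM (log axis) in the HaloTag libraries (red, left) and the Dendra2 libraries (blue, right) with 25, 52 and 70 CTD repeats. Each point is 1 library and bars are 95% Poisson intervals. MIAT, PURPL and LINC02263 have all 3 HaloTag points above all 3 Dendra2 points.

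Among RNAs highest with the short CTD, LINC00520 had 235, 5.38 and 14.5 CPM in HaloTag cells with 25, 52 and 70 repeats, against 6.49, 3.08 and 7.91 CPM in Dendra2 cells. The HaloTag 25R library alone stood far above the other 5, which lay within 3.08 to 14.5 CPM. The 25R library exceeded the 52R library by 5.49 on the log2 CPM scale with HaloTag and by 1.11 with Dendra2. MANCR had 95.02, 10.5 and 14.2 CPM in HaloTag cells, against 15.0, 2.17 and 3.86 CPM in Dendra2 cells. Its 25R level was above the 52R level by a log2 difference of 3.23 with HaloTag and 2.81 with Dendra2. The same shape was thus present under both tags, at a higher level with HaloTag. PURPL had 97.5, 39.0 and 56.8 CPM in HaloTag cells, against 38.7, 19.1 and 27.1 CPM in Dendra2 cells. Its log2 difference of 25R to 52R was 1.38 with HaloTag and 1.06 with Dendra2. Under both tags the order of PURPL was 25R, 70R and then 52R, and the intervals of HaloTag 52R and Dendra2 25R overlapped.

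Among RNAs lowest with the short CTD, LINC01436 had 2.58, 20.7 and 17.0 CPM in HaloTag cells, against 3.02, 18.1 and 14.1 CPM in Dendra2 cells. Its 25R level was under the 52R level by a log2 difference of -2.93 with HaloTag and -2.53 with Dendra2, while the mean log2 difference of HaloTag to Dendra2 was -0.01 ± 0.28 (SD of 3 pairs with the same CTD). MIAT had 5.77, 51.9 and 31.6 CPM in HaloTag cells, against 1.67, 5.61 and 3.78 CPM in Dendra2 cells. HaloTag 52R and 70R stood above the rest, and the intervals of HaloTag 25R and Dendra2 52R overlapped. LINC00662 had 49.0, 541 and 719.6 CPM in HaloTag cells, against 89.7, 173 and 108 CPM in Dendra2 cells. No neighbouring levels of LINC00662 overlapped in their intervals. Its tag difference changed sign with the CTD, being -0.97 on the log2 scale at 25 repeats, 1.53 at 52 and 2.69 at 70.

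LINC00511 had 45.2, 51.1 and 27.4 CPM in HaloTag cells, against 14.8, 41.6 and 13.9 CPM in Dendra2 cells. The 25R library stood near the 52R library with HaloTag (log2 difference -0.12) and far under it with Dendra2 (-1.45). LINC02263, counted with 1204 UMIs in all, had 6.30, 6.22 and 5.98 CPM in HaloTag cells, against 1.61, 1.08 and 0.634 CPM in Dendra2 cells. The intervals of the 3 HaloTag libraries overlapped, as did those of neighbouring Dendra2 libraries.

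Set pair by pair at equal CTD length, 6 of the 8 were higher with HaloTag in 3 of 3 pairs, the exceptions being LINC01436 and LINC00662. Over all genes tested, 30.3% were higher in 3 of 3 pairs, and 40.3% of long noncoding RNA genes were. The HaloTag libraries lay above the Dendra2 libraries without overlap for 3, MIAT, PURPL and LINC02263, against 17.0% of all genes and 23.7% of long noncoding RNA genes. By a stricter rule, 19 of 18069 (0.105%) were called higher with HaloTag and 8 (0.0443%) were called in either direction between 25R and 52R, by edgeR's quasi-likelihood test at an adjusted p under 0.05. These shares are given as background only, since the 8 were chosen on the same contrasts. The mean log2 difference of HaloTag to Dendra2 was 2.59 ± 0.80 for MIAT, 2.45 ± 0.65 for LINC02263 and 2.18 ± 0.37 for MANCR (SD of 3 pairs). It was 1.06 ± 0.16 for PURPL, whose 3 pairs were closest to each other among these 4 RNAs. It was 2.20 ± 2.49 for LINC00520, where 1 pair gave most of the mean, and 1.08 ± 1.87 for LINC00662.

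HaloTag libraries held more cells called G1, so the tag difference was also taken among cells of the same phase, with a pseudocount of 0.5 CPM. For PURPL it was 0.60 ± 0.26 in G1, 0.85 ± 0.30 in S and 0.72 ± 0.21 in G2/M. Each was smaller than the 1.06 over all cells, which came from log2 CPM with scaling factors and another prior count. For MIAT it was 2.40 ± 1.18, 2.33 ± 1.07 and 2.03 ± 0.54 in the same phases. For MANCR it was 1.45 ± 0.46, 2.42 ± 0.13 and 1.93 ± 0.56. In MIAT, MANCR, PURPL, LINC00511 and LINC02263, HaloTag was higher in every one of the 3 pairs in each of the 3 phases. That is a description only, since the RNAs were chosen because their levels differed between the libraries. The share of all genes that meet the same rule within phases is not given here. LINC00520 in G1 was lower with HaloTag in the 52R pair (log2 -0.62) and higher in the 25R pair (3.57).

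Seen cell by cell, the RNAs differed in how many cells held them and how many copies those cells held. Cells were thinned to 5000 UMIs each, which left out 34 to 217 shallower cells per library. LINC00662 was found in 19.9% of HaloTag 25R cells, 72.8% of HaloTag 52R cells (95% exact interval 71.3% to 74.2%) and 75.1% of HaloTag 70R cells. In Dendra2 cells it was found in 32.7%, 43.9% and 36.9% with 25, 52 and 70 repeats. Cells with at least 1 UMI of LINC00662 held on average 1.26, 4.01 and 5.13 of them in HaloTag libraries with 25, 52 and 70 repeats, against 1.43, 2.07 and 1.64 in Dendra2 libraries, so within each tag both the share and the copies per positive cell were higher in the libraries with more of it. In HaloTag 70R, 24.9% of cells had none and 10.8% had 10 or more.

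LINC00520 was found in 33.8% of HaloTag 25R cells, against 1.67% and 4.48% of HaloTag 52R and 70R cells and 1.29% to 2.10% of Dendra2 cells. Even in HaloTag 25R, 66.2% of cells had no UMI of it, while positive cells averaged 3.42 and 8.42% of cells had 5 or more. At full depth a single HaloTag 25R cell held 96 UMIs of LINC00520. Its variance over its mean (Fano factor) in that library was 5.40, against a median of 1.12 for 542 genes of like mean, so the RNA was unevenly spread over cells. For LINC00662 in HaloTag 70R the Fano factor was 5.26, against a median of 1.32 for 119 genes of like mean. LINC02263 had a Fano factor of 0.98 to 1.03 in the 6 libraries, near the medians of 0.993 to 1.01 for genes of like mean. Its mean was low, at 0.00369 to 0.0387 UMIs per thinned cell.

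MANCR was found in 31.6% of HaloTag 25R cells and in 1.22% to 5.94% of cells of the other 5 libraries. PURPL was found in 36.7%, 17.8% and 23.3% of HaloTag cells with 25, 52 and 70 repeats, against 17.6%, 8.70% and 12.3% of Dendra2 cells. MIAT was found in 3.03%, 21.0% and 13.8% of HaloTag cells, against 0.629%, 3.43% and 2.29% of Dendra2 cells. The shares of PURPL put the libraries in the same order as its CPM, and positive cells of these 3 RNAs held 1.03 to 1.46 UMIs on average. LINC00511 was found in 7.38% to 23.4% of cells, LINC01436 in 1.37% to 9.63% and LINC02263 in 0.369% to 3.73%. No cell type that lacks these RNAs was present, so UMIs from free RNA were not measured apart. At full depth the shares were larger, for example 67.2% for PURPL in HaloTag 25R and 87.5% for LINC00662 in HaloTag 52R.

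**Figure D2:**
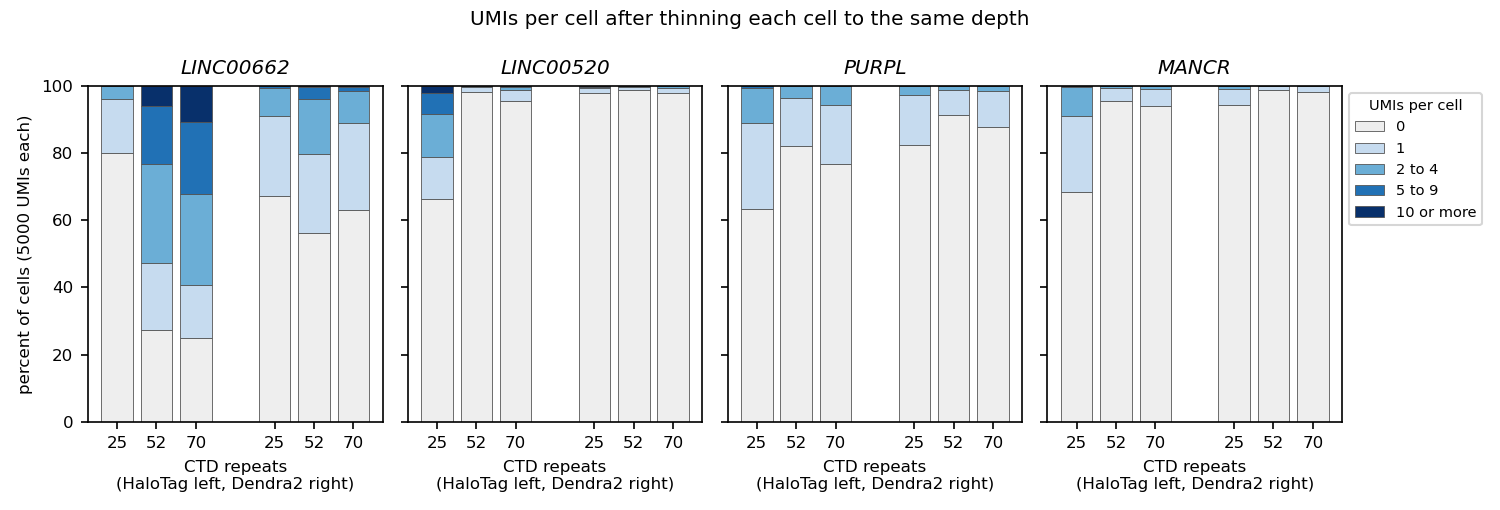
Share of cells by number of UMIs of each RNA after thinning to 5000 UMIs per cell, in the HaloTag libraries and the Dendra2 libraries. LINC00662 shows 10 or more UMIs in 10.8% of HaloTag 70R cells, and LINC00520 in 2.16% of HaloTag 25R cells.

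The authors' kinetic tables give, for each gene, a mean, a parameter K used here as burst frequency, and from them burst size as mean over K. All 8 RNAs had an entry in all 6 libraries, and these values are not scaled for depth. For LINC00662 the mean spanned 10.2-fold over the libraries and burst size 13.4-fold, while K spanned 1.43-fold. K of LINC00662 was 1.04, 0.904 and 0.791 in HaloTag cells with 25, 52 and 70 repeats, against 1.13, 0.831 and 1.02 in Dendra2 cells. Its burst size was 0.789, 8.71 and 10.6 UMIs in HaloTag cells, against 1.35, 3.99 and 2.11 UMIs in Dendra2 cells. Burst size of LINC00662 put the libraries in the same order as its mean in this fit, while K varied little.

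LINC01436 gave the other extreme, its K spanning 13.7-fold and its burst size 2.02-fold. K of LINC01436 was 0.281, 1.42 and 1.26 in HaloTag cells, against 0.214, 2.945 and 1.65 in Dendra2 cells, so the 25R libraries were lowest under both tags. Its limits were 1.79 to 6.62 in Dendra2 52R and 0.124 to 0.405 in Dendra2 25R, so the 13.7-fold span is uncertain. For LINC00520, K was 0.225, 0.0281 and 0.0444 in HaloTag cells, against 0.0238, 0.0195 and 0.0289 in Dendra2 cells. Its burst size was 17.55, 2.88 and 3.87 UMIs in HaloTag cells, against 4.635, 3.04 and 5.45 UMIs in Dendra2 cells. Both terms were highest in HaloTag 25R. For MANCR, K spanned 8.92-fold and burst size 4.30-fold, and for MIAT each spanned 8.66-fold. The limits of K for MIAT lay up to 5.33-fold apart. PURPL moved over a narrower range, 2.08-fold in K and 2.21-fold in burst size. For LINC02263 in Dendra2 70R the upper limit of K was 15600 times the lower one, so its K was not determined. The upper limit was 96.8 and 32.4 times the lower one in HaloTag 25R and 52R, and 1153 and 1008 times in Dendra2 25R and 52R.

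**Figure D3:**
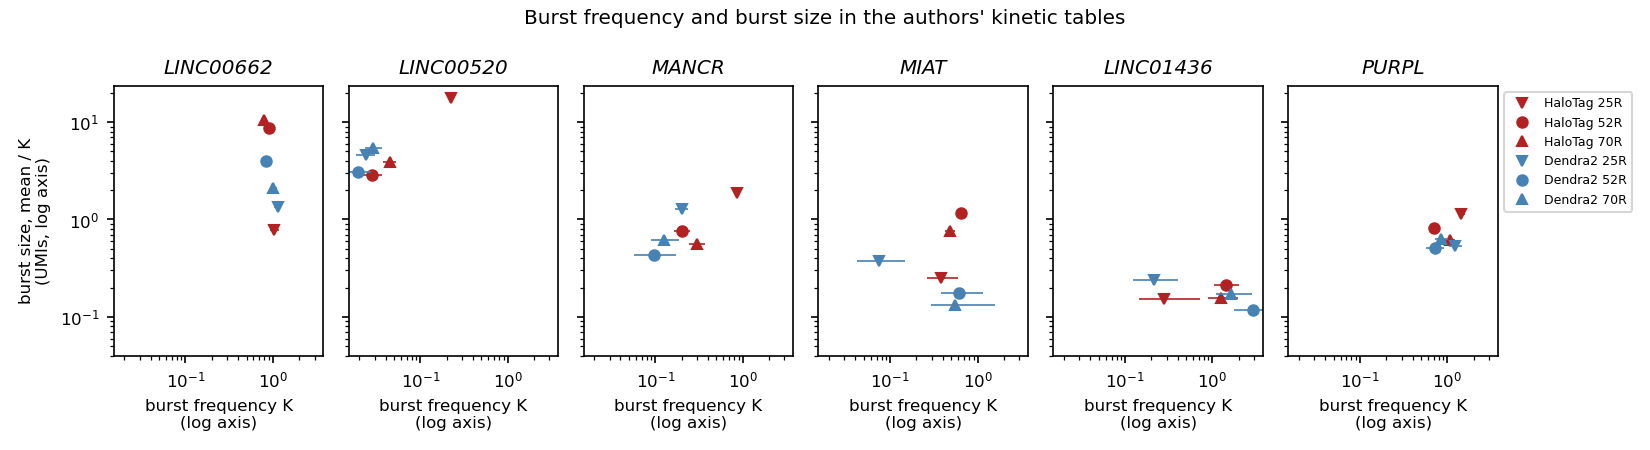
Burst frequency (K, in the unit of the authors' fit) and burst size (mean over K, in UMIs) from the authors' kinetic tables, 1 point per library, on log axes. Horizontal bars are the limits of K. LINC00662 spans 1.43-fold in K and 13.4-fold in burst size, and LINC01436 spans 13.7-fold in K and 2.02-fold in burst size.

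Differences between cells of the same library were not used to choose the 8 and were tested. Counts were summed per library and cell class and fitted with edgeR's quasi-likelihood test with the library as a term, and p-values were adjusted over all genes. All 8 RNAs passed the filter on low counts in each fit. Without the library term, 32 of the calls below were lost. Only 1 of the 8 RNAs was then called for G2/M against G1 and 1 for S against G1, with 0 in each other contrast. In each contrast within libraries the classes also differed in phase, depth or mitochondrial share. Those values stand beside the results, and their part in the results was not tested except where G1 cells alone or thinned cells are given. Sums of 1 library come from the same culture, so p-values speak only for these 6 libraries. They come from edgeR's fit, in which libraries with more counts weigh more. The SE is the log2 difference over the square root of the test's F statistic, not the SD over libraries.

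By CPM, a share of the cells' UMIs, all 8 RNAs were lower in cells called G2/M than in cells called G1. Without the filter on low counts 6 of the 8 passed, since LINC01436 (adjusted p = 0.276) and LINC00511 (0.0658) did not. Over all genes, 36.5% were lower, and among annotated long noncoding RNA genes 48.3% were lower. LINC00520 had 132, 1.82 and 3.99 CPM in G2/M cells of the HaloTag libraries with 25, 52 and 70 repeats, against 478, 12.5 and 37.4 CPM in G1 cells. In the Dendra2 libraries it had 3.71, 1.40 and 4.30 CPM in G2/M cells, against 39.8, 19.5 and 29.0 CPM in G1 cells. Within every library the G2/M level was under the G1 level, with a log2 difference of -2.57 ± 0.17 (SE, adjusted p = 7e-13).

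PURPL had 68.7, 21.5 and 35.2 CPM in G2/M cells of the HaloTag libraries, against 159, 72.0 and 99.9 CPM in G1 cells. In the Dendra2 libraries it had 35.6, 14.9 and 21.3 CPM in G2/M cells, against 89.7, 57.4 and 63.2 CPM in G1 cells. PURPL was lower in G2/M in 6 of 6 libraries, with a log2 difference of -1.52 ± 0.07 (SE, adjusted p = 3.94e-16). MIAT (-1.29 ± 0.10), LINC00662 (-0.84 ± 0.05), LINC02263 (-0.77 ± 0.11) and MANCR (-0.64 ± 0.12) were also lower in 6 of 6 libraries. LINC01436 and LINC00511 each differed by a log2 of -0.22 and were lower in 5 of 6. LINC01436 lost its call without HaloTag 52R (adjusted p = 0.17) and in thinned cells (0.0955), and LINC00511 lost its call without HaloTag 70R (adjusted p = 0.0506).

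By CPM, 7 of the 8 were lower in cells called S than in cells called G1, against 30.7% of all genes and 33.6% of long noncoding RNA genes. The log2 differences were -2.16 ± 0.19 for LINC00520, -1.29 ± 0.07 for PURPL, -1.05 ± 0.14 for LINC02263, -0.88 ± 0.11 for MIAT and -0.80 ± 0.13 for MANCR. They were -0.51 ± 0.05 for LINC00662 and -0.25 ± 0.08 for LINC00511, which did not pass without HaloTag 70R (adjusted p = 0.0758). LINC01436 did not pass, at -0.02 ± 0.08 (adjusted p = 0.886), and was higher in S in 3 of 6 libraries. Median UMIs per cell over the libraries were 12962 to 20899 in G2/M cells and 11392 to 18407 in S cells, against 8834.5 to 14201 in G1 cells. A lower CPM in G2/M or S is therefore a lower share of UMIs and need not mean fewer copies per cell, which were not compared. The median p53 target score, described below, was 0.00646 to 0.122 in G2/M cells and 0.032 to 0.141 in S cells, against 0.131 to 0.278 in G1 cells.

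**Figure D4:**
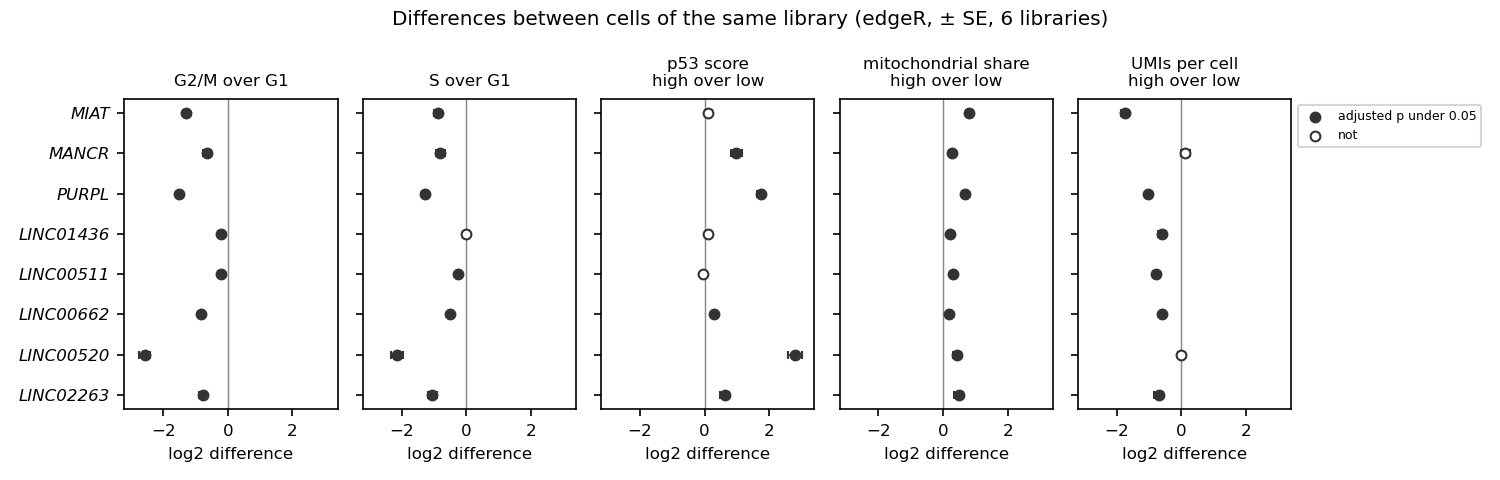
Log2 difference between cell classes of the same library for each RNA, with the SE of edgeR's fit to 6 libraries, which is not the spread over libraries. Filled points have an adjusted p under 0.05. All 8 points lie left of 0 for G2/M against G1, and LINC00520 and PURPL lie farthest right for p53 score.

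Cells were then ranked within each library by a score of p53 target genes such as CDKN1A, a cell cycle inhibitor, and MDM2, which degrades p53. The highest 25% were compared with the lowest 25%. Of the 8 RNAs, 5 were higher in the cells with the high score, against 21.5% of all genes and 26.4% of long noncoding RNA genes. The list genes were left out of the test.

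PURPL, known as a p53 target, had 144, 76.8 and 99.6 CPM in high-score cells of the HaloTag libraries, against 58.0, 13.4 and 26.2 CPM in low-score cells. In the Dendra2 libraries it had 64.3, 37.3 and 46.8 CPM in high-score cells, against 24.6, 8.98 and 15.7 CPM in low-score cells. The high-score cells held more in 6 of 6 libraries, with a log2 difference of 1.74 ± 0.11 (SE, adjusted p = 3.59e-09). LINC00520 differed more, with 390.3, 14.3 and 36.0 CPM in high-score cells of the HaloTag libraries, against 97.6, 0.617 and 2.18 CPM in low-score cells. In the Dendra2 libraries it had 19.2, 9.76 and 22.1 CPM in high-score cells, against 2.08, 0.625 and 1.10 CPM in low-score cells. The ratio was 4.0 in HaloTag 25R, where the RNA was most abundant, and 9.25 to 23.2 in the other 5 libraries. The log2 difference was 2.80 ± 0.22 (adjusted p = 4.33e-08) and 3.94 ± 0.13 without HaloTag 25R.

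MANCR was 2.21 to 7.24 times higher in high-score cells of 5 libraries and 1.14 times in HaloTag 25R. It had 101, 16.5 and 22.8 CPM in high-score cells of the HaloTag libraries, against 88.4, 5.41 and 8.74 CPM in low-score cells. In the Dendra2 libraries it had 23.5, 4.52 and 7.88 CPM in high-score cells, against 10.6, 0.625 and 1.84 CPM in low-score cells. Its log2 difference was 0.99 ± 0.18 (adjusted p = 0.000292) and 1.5 ± 0.13 without HaloTag 25R. Whether these ratios differ between libraries was not tested. LINC02263 (0.62 ± 0.13) and LINC00662 (0.29 ± 0.05) were also higher in 6 of 6 libraries. MIAT (0.11 ± 0.10, adjusted p = 0.399), LINC01436 (0.12 ± 0.07, adjusted p = 0.204) and LINC00511 (-0.05 ± 0.07, adjusted p = 0.607) did not pass.

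High-score cells were called G1 in 28.9% to 61.7% of cases over the libraries, and low-score cells in 2.41% to 16.8%. Median UMIs per cell were 10556 to 18363 in high-score cells and 11275 to 19302 in low-score cells. Among G1 cells alone, PURPL (log2 1.12 ± 0.10, adjusted p = 3.32e-10), LINC00520 (1.33 ± 0.20, adjusted p = 7.85e-06) and MANCR (0.65 ± 0.17, adjusted p = 0.00642) were still higher with a high score. LINC02263 (0.36 ± 0.23, adjusted p = 0.349) and LINC00662 (-0.09 ± 0.06, adjusted p = 0.375) did not pass there. MIAT was lower with a high score among G1 cells (-0.83 ± 0.12, adjusted p = 7.85e-06).

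**Figure D5:**
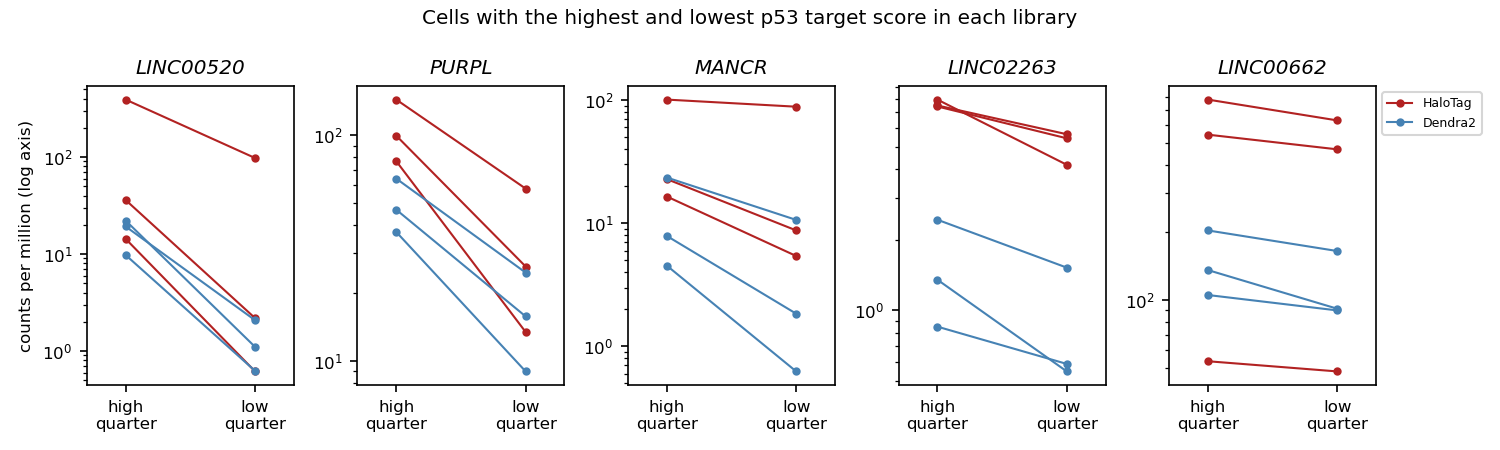
CPM (log axis) of the 5 RNAs called in the p53 comparison, in the 25% of cells with the highest and the 25% with the lowest p53 target score, 1 line per library, HaloTag in red and Dendra2 in blue. Lines fall to the right in all libraries for each RNA, and the MANCR line of HaloTag 25R is nearly flat (101 and 88.4 CPM).

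A high share of mitochondrial counts can mark cells that lost cytoplasm. All 8 RNAs were higher in the 25% of cells with the highest mitochondrial share than in the 25% with the lowest, against 18.9% of all genes and 20.1% of long noncoding RNA genes. The log2 difference was 0.79 ± 0.09 for MIAT (adjusted p = 1.62e-07) and 0.67 ± 0.06 for PURPL (adjusted p = 1.58e-08), both higher in 6 of 6 libraries. The other 6 differed by 0.17 to 0.48. LINC00511 was higher in 6 of 6 libraries, LINC00520 in 4 of 6, and MANCR, LINC01436, LINC00662 and LINC02263 in 5 of 6. In MIAT the high-share cells had 8.48, 63.1 and 45.1 CPM in HaloTag libraries, against 4.61, 43.4 and 24.0 CPM in low-share cells. In Dendra2 libraries they had 1.49, 7.59 and 6.58 CPM, against 1.39, 3.45 and 2.36 CPM. High-share cells were called G1 in 15.4% to 51.7% of cases and low-share cells in 10.3% to 32.2%. Median UMIs per cell were 9582 to 16607 in high-share cells and 12193 to 18643 in low-share cells.

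Only PURPL (0.50 ± 0.08, adjusted p = 1.17e-05), LINC00511 (0.34 ± 0.11, adjusted p = 0.0149) and LINC00662 (0.25 ± 0.07, adjusted p = 0.00696) passed among G1 cells alone. Leaving out 1 library ended the call of LINC02263 (HaloTag 25R, adjusted p = 0.0677, or HaloTag 52R, 0.0577), of MANCR (HaloTag 70R, 0.0568) and of LINC00662 (Dendra2 52R, 0.0596). LINC01436 (adjusted p = 0.0426) lost its call without HaloTag 52R, HaloTag 70R, Dendra2 25R or Dendra2 52R, at an adjusted p of 0.0747 to 0.193. Over all genes, 3039 were called higher and 3386 lower with these scaling factors, against 7176 higher and 1167 lower when only library totals were used, and all 8 RNAs were called higher under both. With DESeq2, LINC01436, LINC00520 and LINC02263 did not pass (adjusted p = 0.232, 0.285 and 0.0945). LINC01436 (0.0585) and LINC02263 (0.0647) did not pass in thinned cells, nor did MANCR (0.0706) and LINC02263 (0.0935) when the upper and lower 50% of cells were compared. Without the filter LINC01436 did not pass (0.0596).

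Cells with more RNA held a smaller share of 6 of the 8. In the 25% of cells with the most UMIs, MIAT had 3.01, 29.2 and 16.6 CPM in HaloTag libraries, against 13.5, 89.6 and 77.6 CPM in the 25% with the fewest. In Dendra2 libraries it had 1.17, 4.41 and 2.57 CPM in cells with the most UMIs, against 2.44, 11.0 and 7.27 CPM in those with the fewest. MIAT was thus lower in 6 of 6 libraries, with a log2 difference of -1.76 ± 0.12 (SE, adjusted p = 5.5e-08). PURPL (-1.03 ± 0.07), LINC00511 (-0.78 ± 0.09), LINC02263 (-0.70 ± 0.14), LINC01436 (-0.61 ± 0.11) and LINC00662 (-0.59 ± 0.06) were lower too, LINC02263 in 4 of 6 libraries and the other 4 in 6 of 6, against 19.3% of all genes and 28.2% of long noncoding RNA genes. In cells thinned to equal depth LINC02263 did not pass (adjusted p = 0.108). MANCR (0.12 ± 0.14, adjusted p = 0.52) and LINC00520 (-0.01 ± 0.11, adjusted p = 0.956) did not pass. Cells with the most UMIs were called G2/M in 69.5% to 81.6% of cases, and those with the fewest in 22.2% to 54.9%. Among G1 cells alone, LINC00520 was higher in cells with the most UMIs (0.90 ± 0.12, adjusted p = 1.21e-07), MIAT remained lower (-1.48 ± 0.13, adjusted p = 4.99e-12), and LINC02263 did not pass (-0.41 ± 0.22, adjusted p = 0.228).

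A list of 50 well-studied long noncoding RNAs other than the 8 gives a setting for these contrasts. Of 41 tested, 29 were lower and 5 higher in G2/M than in G1, and NEAT1, the scaffold of nuclear paraspeckles, differed by -1.86 ± 0.07 on the log2 scale. MALAT1, a nuclear speckle RNA, differed by -1.28 ± 0.03. With a high p53 score, 20 of 40 were higher and 5 lower, among them PINCR (2.42 ± 0.28), NEAT1 (1.66 ± 0.08) and TP53TG1 (1.31 ± 0.07). The median log2 difference of the list was 0.20, beside 0.03 over all genes. Of 40 tested, 0 were called for the tag, for 25R against 52R or for 70R against 52R by edgeR, with 10, 18 and 3 at an unadjusted p under 0.05. Over all 18069 genes, 47, 8 and 0 were called in these comparisons, and 19.5%, 12.7% and 4.63% had an unadjusted p under 0.05.

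Genes next to the 8 were looked at for like differences. PURPL had no tested protein-coding gene within 1 Mb and no tested overlapping gene, and LINC00662 had overlapping genes only. Of 17 neighbouring or overlapping genes tested, 0 were called by edgeR in any of the 3 comparisons between genotypes. The lowest adjusted p was 0.107 for the tag and 0.263 for 25R against 52R. Of all 18069 genes tested, 47, 8 and 0 were called for the tag, for 25R against 52R and for 70R against 52R. A count of 0 among 17 genes is near that share and says little about the neighbours. SOX9, a transcription factor of cartilage and bone development 163.7 kb from LINC00511, had 89.6, 104 and 81.6 CPM in HaloTag cells, against 50.2, 67.8 and 42.4 CPM in Dendra2 cells. Its log2 CPM correlated with that of LINC00511 at r = 0.91 over the 6 libraries, which share the tag and CTD differences. RUNX1, a blood and bone transcription factor 0.47 kb from LINC01436, had 43.3, 50.9 and 47.2 CPM in HaloTag cells, against 33.5, 42.4 and 37.2 CPM in Dendra2 cells. RUNX1 thus spanned a far smaller range than LINC01436.

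AC006504.1 overlaps LINC00662 on the same strand and ran in parallel to it (r = 0.999), with 2.05, 23.7 and 34.8 CPM in HaloTag cells, against 3.81, 7.78 and 4.83 CPM in Dendra2 cells. No source used here tells how reads in the shared stretch were divided between these genes, so the level of LINC00662 is uncertain to that extent. The neighbours of MIAT differed among themselves. CRYBA4, a lens crystallin gene 15.7 kb from MIAT on the same strand, had 0.188, 2.80 and 4.29 CPM in HaloTag cells, against 0.0569, 0.552 and 0.0746 CPM in Dendra2 cells (r = 0.937 with MIAT). Z99774.1, which overlaps MIAT on the other strand, had 0.222, 0.594 and 0.405 CPM in HaloTag cells, against 0.133, 0.171 and 0.168 CPM in Dendra2 cells (r = 0.972). No source used here says whether counting used strand, so whether reads of MIAT entered the count of Z99774.1 was not checked. MIATNB overlaps MIAT on the same strand and did not share its range, with 13.3, 11.5 and 12.6 CPM in HaloTag cells, against 8.31, 9.08 and 9.04 CPM in Dendra2 cells.

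Among 8178 genes with a mean of at least 10 CPM, the one most like PURPL across the 6 libraries was LNCTAM34A, a noncoding RNA antisense to the p53 target MIR34A (r = 0.993). It had 26.3, 11.9 and 15.2 CPM in HaloTag cells, against 10.8, 5.90 and 7.10 CPM in Dendra2 cells. Both RNAs are also among the 6 promoter windows with 2 adjacent p53 half-sites. MANCR was most like TMEM192 (r = 0.990), MIAT most like MED13L (0.997), LINC01436 most like SOX12 (0.996) and LINC00511 most like FAAP20 (0.989). LINC00520 was most like CAPN2 (0.987) and LINC02263 most like TMEM59 (0.999). These are the highest of many values over 6 points that share tag, CTD length and sequencing, and are given as a description. A high r does not mean a like range. MED13L ran from 33.8 to 41.7 CPM, FAAP20 from 69.9 to 87.0 CPM and CAPN2 from 94.6 to 133.7 CPM. TMEM192 ran from 8.66 to 30.8 CPM, SOX12 from 18.3 to 34.6 CPM and TMEM59 from 73.8 to 120.6 CPM.

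Among the 8 themselves, MANCR and PURPL were most alike across libraries (r = 0.968, n = 6), and MANCR and LINC01436 most opposed (r = -0.728). Between cells of a library the 28 pairs had mean correlations of at most 0.0869, the value of MANCR with LINC00520, so RNAs that ran together across libraries were hardly associated cell by cell at these sparse counts. Against 7003 other genes, PURPL was closest to NEAT1 (mean r = 0.244 over 6 libraries) and MALAT1 (0.223), and LINC00520 to FTH1 (0.203) and GPNMB (0.196). For the other 6 the highest mean was 0.151, between LINC00662 and ANXA2.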

How the data were processed

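Single-cell RNA was measured in 6 libraries, listed as 9 samples because each HaloTag library was sequenced in 2 runs that the deposited matrices merge. The deposited UMI counts are raw and come from Cell Ranger 6.1.2 (named in the file headers), with bcl2fastq and GRCh38 named in the submitters' processing notes. The authors' kinetic tables hold a fitted mean in UMIs per cell, K and a squared CV, each with limits. The file headers name a beta-Poisson fit, and no source used here names its tool.

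The 8 RNAs, the gene lists and the contrasts were chosen with earlier results of these data known. Names matched GENCODE for 36366 of 36601 features (99.36%). Barcodes left out made up 2.01% to 3.03% of each library. Doublets were not looked for or removed. Phase and p53 scores were computed per library with scanpy 1.11.5 (50 control genes per list gene, 25 bins). Tests used edgeR 4.0.16 quasi-likelihood fits in R 4.3.3 with TMM factors and filterByExpr: 18069 genes between libraries (tag and CTD as terms, 2 residual degrees of freedom) and 15975 to 16426 within libraries (library as a term), with Benjamini-Hochberg adjustment at 0.05. Log2 CPM between libraries used a prior count of 2 and scaling factors. Its differences can therefore depart slightly from those of the printed CPM, which use library totals alone. Named genes were the 8, nearest or overlapping genes within 1 Mb, the most alike genes and list genes past the threshold. LNCTAM34A and PTCHD4 were singled out after their values were seen. Alternatives were library totals, DESeq2 1.42.0, no filter, all barcodes, thinned cells, G1 cells alone and each library left out. The tag difference within phases was added after seeing the data. Scripts were tested on simulated data.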

Additional observations from a re-analysis of the deposited data

Results flagged for a closer look

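The log2 CPM difference of 70R to 52R for LINC00662 was 0.4512 with HaloTag (719.6 and 541 CPM) and -0.7047 with Dendra2 (108 and 173 CPM). The 2 tags moved in opposite directions, each with 1 library per genotype, and the difference between them was not tested.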

How the results depend on the processing

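No paired analysis was possible because the numbers in the labels count sequencing runs of 1 library, which the matrices merge. Between libraries, the tag gave 47 calls, 327 without the filter, 1130 with DESeq2 and 6 to 105 with 1 library left out. For 25R against 52R the 8 calls became 0 with DESeq2 size factors (2298 at an unadjusted p under 0.05), 104 without the filter, 489 with DESeq2 and 0 to 538 with 1 library left out. For 70R against 52R edgeR gave 0 calls (836 at an unadjusted p under 0.05), 2 without the filter, 67 with DESeq2 and 0 to 2 with 1 library left out. Without the library as a term, which leaves the differences between libraries in the error, calls were 4208 for G2/M, 2940 for S, 370 for p53 score, 0 for mitochondrial share (1990 at an unadjusted p under 0.05) and 504 for UMIs. Among G1 cells alone they were 1627, 2458 and 1942 for p53 score, mitochondrial share and UMIs, and in thinned cells 4187 and 2765 for mitochondrial share and UMIs.

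The 40 results of the 8 RNAs within libraries were recomputed in 504 alternatives. Direction and side of the threshold were kept in 420, and the call was lost in 62, of which 32 were without the library term, and the sign changed in 22. For LINC01436 in S against G1 the log2 value was 0.0015 with library totals, 0.052 without the filter, 0.0099 with DESeq2, 0.044 for cells away from the phase boundary and -0.049 to 0.065 with 1 library left out. For p53 score in G1 cells alone it was -0.83 for MIAT, -0.20 for LINC01436 and -0.091 for LINC00662, and for LINC00511 it ran from -0.12 to 0.0028 with 1 library left out. For UMIs, MANCR gave -0.0045 in thinned cells and -0.070 to 0.25 with 1 library left out. LINC00520 gave 0.028 without the filter, 0.25 without the library term, 0.072 in thinned cells, 0.033 for the upper against the lower 50% of cells, 0.90 in G1 cells and -0.25 to 0.10 with 1 library left out. Over all cells, LINC00662 with p53 score was the only one of these results past the threshold. Among G1 cells alone MIAT with p53 score and LINC00520 with UMIs passed. The cause of the changes was not tested. Depth limits LINC02263, with 34 UMIs in Dendra2 70R.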

Other observations

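The 6 promoter windows with 2 adjacent p53 half-sites belonged to EIF2AK3-AS1, LNCTAM34A, LOC105376065, LOC124901737, PTCHD4 and PURPL. Besides PURPL, LNCTAM34A was higher in cells with a high p53 score (log2 1.56 ± 0.12, SE, edgeR adjusted p = 4.09e-08), as was PTCHD4 (0.97 ± 0.18, adjusted p = 0.000352). Both were named after their values were seen. Values of EIF2AK3-AS1, LOC105376065 and LOC124901737 are not given here, and the 6 windows were not tested as a set. Over all genes, 21.5% were called higher in cells with a high p53 score.

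Among long noncoding RNAs with a mean of at least 10 CPM, AL627171.2 was the only one outside the 8 called for the tag or for 25R against 52R. It was lower with HaloTag, with 66.1, 131 and 106 CPM in HaloTag cells with 25, 52 and 70 repeats, against 243, 402 and 289.6 CPM in Dendra2 cells (log2 -1.73 ± 0.14, edgeR adjusted p = 0.0198).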
